A study of Mus musculus with 50 samples.

Results

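A set of 9 annotated genes at 5 loci were followed in RNA sequencing of mouse embryonic stem (ES) cells: Nefm with Nefl, E130003G02Rik with Grin1, Gm15415 with Odz4, Phyhipl with Fam13c, and Lgi1. They were chosen on their counts per library over the 3 groups described here, so those counts are given as a description, with no test. The 9 genes are among 37310 in the count tables, and 6 of them (Nefm, E130003G02Rik, Gm15415, Odz4, Phyhipl and Lgi1) are among the 5034 genes that passed the filter on low counts. Lgi1 passed it through its counts in KO1 alone.

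The cells are J1, an ES cell line of the 129S4/SvJae mouse strain, kept untreated in medium with fetal bovine serum and the cytokine LIF on gelatin. The groups were the NSD1-/- line KO1, the NSD1-/- line KO2 and wild type cells, with 2 RNA libraries each. NSD1 is a methyltransferase for lysine 36 of histone H3, and the series asks how its loss affects enhancers and the genes tied to them. The labels tell neither how the KO lines were made nor whether replicate libraries are from separate cultures. Errors and p-values therefore measure the spread of these libraries alone, and that spread may be technical.

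Neurofilaments are the intermediate filaments of axons. They are built from light, medium and heavy chains, of which Nefl encodes the light and Nefm the medium one. Grin1 encodes the subunit that every NMDA-type glutamate receptor needs, Odz4 (now Tenm4) encodes teneurin-4, a transmembrane adhesion protein, and Lgi1 encodes a secreted synaptic protein that binds the receptors ADAM22 and ADAM23. Genes of this kind are kept low outside neurons in part by the repressor REST, which binds the RE1 element with histone deacetylases and the demethylase KDM1A.

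Total counts per library were 1168961 and 1194285 in KO1, 1150089 and 1285487 in KO2, and 1203554 and 1237783 in wild type, and a single locus, AY036118, took 32.3% to 37.2% of them. The median tested gene held 23 to 27 counts. The authors counted fragments on 1 strand, and each count was taken to come from RNA of the other strand. This reading rests on the whole tables. Apart from AY036118, 87.0% of counts lay at the 4887 genes whose exons overlap an exon of the other strand by at least 50 bases, and the share at 76 ribosomal protein genes was no more than 0.310% in any library. The ribosomal protein gene Rpl23a had 29 to 46 counts per library, against 11382 to 18509 at Tlcd1 opposite it. Genes with no annotated exon opposite also held counts, among them the ES cell genes Klf4 (133 to 174), Sox2 (66 to 100) and Pou5f1 (14 to 23), and the tables do not tell which strand's transcripts these came from. A count at Nefm is thus read as RNA of Nefl, and a count at Nefl as RNA of Nefm. The knocked-out gene itself is not checked by this strand: Nsd1 held 55 and 38 counts in KO1, 27 and 21 in KO2, and 21 and 25 in wild type. Summed CPM (counts scaled to library size) of 10 ES cell markers, by their own symbol, was 285 to 309 in KO1, 303 to 319 in KO2 and 288 to 315 in wild type. The counted gene opposite a marker, Gm13061 opposite Lin28a, was lower in both lines, at 303 to 324 CPM in KO1, 307 to 372 in KO2 and 428 to 451 in wild type. Its part in the members' values was not tested.

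The 4 pairs overlap in different ways, and where they do decides which RNA a count can stand for. Coordinates are mm9, as the tables give them, and 1-based. Nefm (chromosome 14, 68700647 to 68742903, minus strand) shares 1108 exonic bases with Nefl (68701920 to 68707152, plus strand), all in the first of 4 Nefl exons, and 91.0% of them are coding in Nefl. The shared stretch belongs to the longer of 2 annotated Nefm transcripts, whose last exon lies across the start of Nefl; the other Nefm transcript ends 30187 bases beyond the far end of Nefl. E130003G02Rik (chromosome 2, 25146740 to 25154445, plus strand), an annotated noncoding transcript, shares 1307 bases with 11 of the 18 exons of Grin1 (25146701 to 25174707, minus strand), and 90.6% are coding in Grin1. Gm15415 (chromosome 7, 104055336 to 104095544, minus strand) shares 989 bases with the last of 42 exons of Odz4 (103319754 to 104059603, plus strand), all of them in its 3′ UTR. Phyhipl (chromosome 10, 70020430 to 70118713, minus strand) and Fam13c (69903416 to 70021479, plus strand) meet tail to tail over 1050 bases, none of them coding in Fam13c. The shared stretch is 19.2% of the exonic bases of Nefm, 45.2% of E130003G02Rik, 82.6% of Gm15415 and 10.8% of Phyhipl. Counts are per gene and do not tell if fragments lay in it. The readings as Nefl, Grin1, Odz4 and Fam13c RNA assume that they did. Lgi1 (chromosome 19, 38339272 to 38383429, plus strand) has no annotated exon on the other strand, so the tables do not tell which transcript its counts came from.

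**Figure D1:**
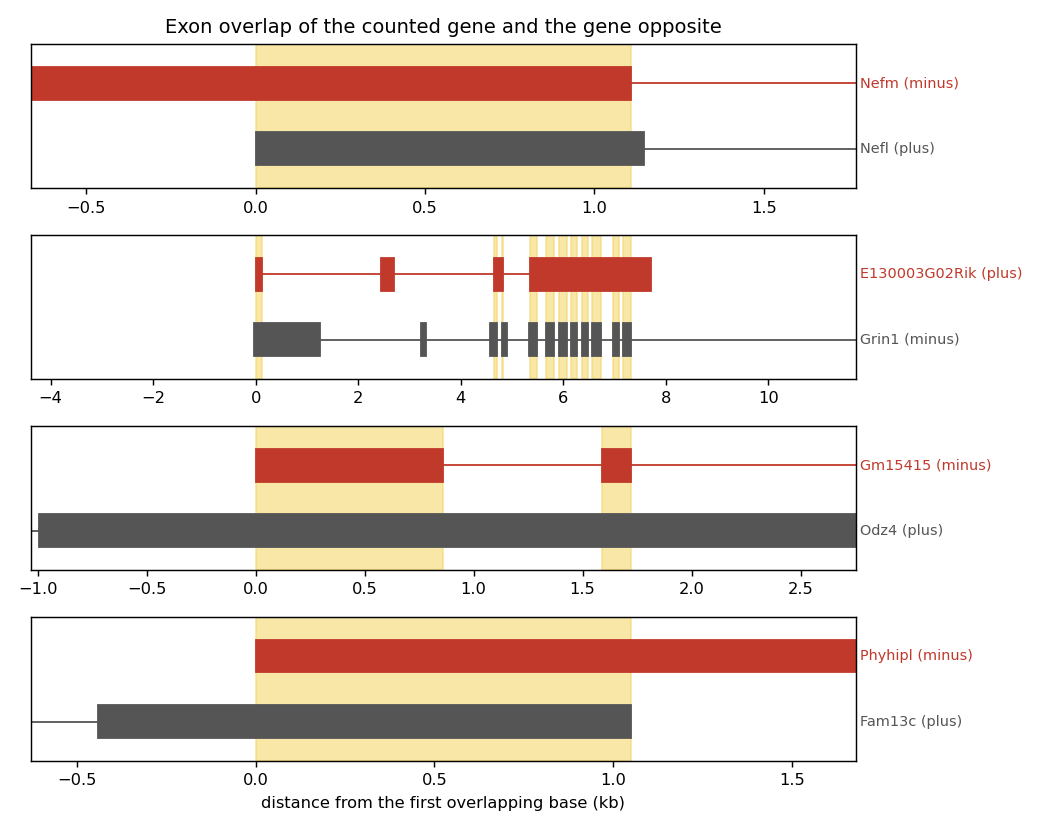
Exons (boxes) of the counted gene (red, upper row) and of the gene opposite (grey, lower row) around the stretch they share (yellow), with distance in kb on the horizontal axis and a scale of its own in each panel. Nefm meets 1 exon of Nefl and E130003G02Rik meets 11 exons of Grin1, while Gm15415 and Phyhipl lie across the last exons of Odz4 and Fam13c.

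Nearly all fragments of a pair lay at the gene named first. Over the 6 libraries, Nefm held 652 counts and Nefl 18, so that 97.3% were at Nefm. E130003G02Rik held 1023 and Grin1 16 (98.5%), Gm15415 held 954 and Odz4 108 (89.8%), and Phyhipl held 208 and Fam13c 10 (95.4%).

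E130003G02Rik, read as Grin1 RNA, stood above wild type in both knockout lines. It had 271 and 236 counts in the KO1 libraries, 180 and 180 in the KO2 libraries, and 77 and 79 in the wild type libraries. All 4 knockout libraries stood above both wild type libraries, a pattern that 8.48% of tested genes showed. In CPM it averaged 208 ± 15.0 in KO1, 154 ± 8.50 in KO2 and 67.3 ± 0.148 in wild type (SD, n = 2 each). The log2 fold change was 1.63 ± 0.13 (SE of the edgeR fit) in KO1 against wild type and 1.20 ± 0.14 in KO2 against wild type, and 1.41 ± 0.12 for the lines together. Both KO1 libraries stood above both KO2 libraries, with a log2 difference of 0.44 ± 0.11, small beside either line's distance from wild type.

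Counts at Grin1 itself, which are read as RNA of the other strand, were few: 3 and 4 in KO1, 3 and 4 in KO2, and 1 and 1 in wild type. Each knockout library was above each wild type library here as well. The ratio of summed counts, scaled for depth, was 3.34 in KO1 (exact 95% interval 0.636 to 33.0) and 3.48 in KO2 (0.662 to 34.3). Here and below, exact intervals on members cover counting error only and are no test, since these counts chose the members. Per kb of the shared stretch, if all E130003G02Rik fragments came from it, the CPM level was 160 in KO1, 118 in KO2 and 51.5 in wild type. Nefm came to 158 in KO1, 34.2 in KO2 and 53.7 in wild type on the same scale. In wild type the Nefl and Grin1 readings were thus near each other per kb, the Odz4 reading was the highest, at 140, and the Fam13c reading the lowest, at 27.5.

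Nefm, read as the neurofilament light chain gene Nefl, was higher in KO1 and lower in KO2 than in wild type. It had 228 and 197 counts in KO1, 35 and 54 in KO2, and 69 and 69 in wild type. No library of one group fell within the range of another. The level was 175 ± 13.6 CPM in KO1, 37.9 ± 9.42 CPM in KO2 and 59.5 ± 1.21 CPM in wild type (SD, n = 2 each). The log2 fold change was 1.55 ± 0.15 in KO1 against wild type and -0.64 ± 0.20 in KO2 against wild type. Averaged over the lines it was 0.46 ± 0.16, a value that describes neither line. KO1 stood 4.58-fold above KO2 (log2 difference 2.20 ± 0.17).

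Counts at Nefl, read as Nefm RNA or as RNA from the intron of Nefm that spans it, had the same order at a far lower level: 6 and 6 in KO1, 0 and 1 in KO2, and 3 and 2 in wild type. The groups did not overlap. The scaled ratio was 2.29 in KO1 against wild type (exact 95% interval 0.751 to 8.30), 0.199 in KO2 against wild type (0.00420 to 1.78) and 11.5 in KO1 against KO2 (1.71 to 493).

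Gm15415, read as the 3′ UTR of the teneurin gene Odz4, had the same order of groups as Nefm. It had 241 and 247 counts in KO1, 75 and 69 in KO2, and 137 and 185 in wild type. KO1 was above and KO2 below both wild type libraries, although the wild type libraries lay further apart than those of either line. The level was 201 ± 8.65 CPM in KO1, 61.9 ± 7.04 CPM in KO2 and 139 ± 26.5 CPM in wild type (SD, n = 2 each). The log2 fold change was 0.53 ± 0.13 in KO1 against wild type and -1.17 ± 0.16 in KO2 against wild type, and KO1 stood 3.25-fold above KO2 (1.70 ± 0.15).

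Odz4 itself, read as RNA antisense to the teneurin gene, did not show this order. It had 27 and 18 counts in KO1, 18 and 16 in KO2, and 8 and 21 in wild type, so that the wild type range took in both KO2 libraries and the lower KO1 library. Its log2 fold change was 0.56 ± 0.37 in KO1, 0.22 ± 0.40 in KO2 and 0.34 ± 0.36 between KO1 and KO2. These values turn on the wild type libraries: without wild type replicate 1 they were 0.05 in KO1 and -0.28 in KO2, and without wild type replicate 2 they were 1.39 in KO1 and 1.06 in KO2. Another 6 minus-strand genes lie within Odz4, away from Gm15415, most of them annotated as noncoding processed transcripts. Together they held 14 and 15 counts in KO1, 2 and 6 in KO2, and 7 and 13 in wild type. By these sums KO1 was the highest and KO2 the lowest, at 29, 8 and 20 counts in KO1, KO2 and wild type. The single genes were low, and the groups overlapped at Gm15413, with 4 and 6 counts in KO1, 1 and 4 in KO2, and 1 and 8 in wild type. Over all libraries, Gm15413 held 24 of these counts and Gm8329 held 0.

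Phyhipl, read as the 3′ UTR of Fam13c, had the widest gap between the lines among the tested members with counts in every library. It had 69 and 53 counts in KO1, 12 and 7 in KO2, and 32 and 35 in wild type. The groups did not overlap, and each KO2 library held fewer counts than any other library. Phyhipl encodes a relative of the phytanoyl-CoA hydroxylase interacting protein, and Fam13c belongs to the FAM13 family. The level was 50.1 ± 8.03 CPM in KO1, 8.23 ± 3.48 CPM in KO2 and 28.9 ± 1.24 CPM in wild type (SD, n = 2 each). The log2 fold change was 0.79 ± 0.23 in KO1 against wild type and -1.81 ± 0.35 in KO2 against wild type, and KO1 stood 6.10-fold above KO2 (2.61 ± 0.31).

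Fam13c itself, read as Phyhipl RNA, held 4 and 1 counts in KO1, 0 and 0 in KO2, and 0 and 5 in wild type. The wild type libraries spanned the KO1 libraries, and the ratio of KO1 to wild type was 0.955 (exact 95% interval 0.220 to 4.15).

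Lgi1 was seen almost only in KO1. It had 11 and 11 counts in KO1, 0 and 0 in KO2, and 0 and 4 in wild type. Both KO1 libraries were above both wild type libraries, while KO2 and wild type overlapped at 0. The level was 9.06 ± 0.232 CPM in KO1 and 1.70 ± 2.40 CPM in wild type (SD, n = 2 each). The scaled ratio of KO1 to wild type was 5.25 (exact 95% interval 1.78 to 21.0). The count of 0 over the KO2 group allows up to 3 counts. No minus-strand gene lies within Lgi1.

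**Figure D2:**
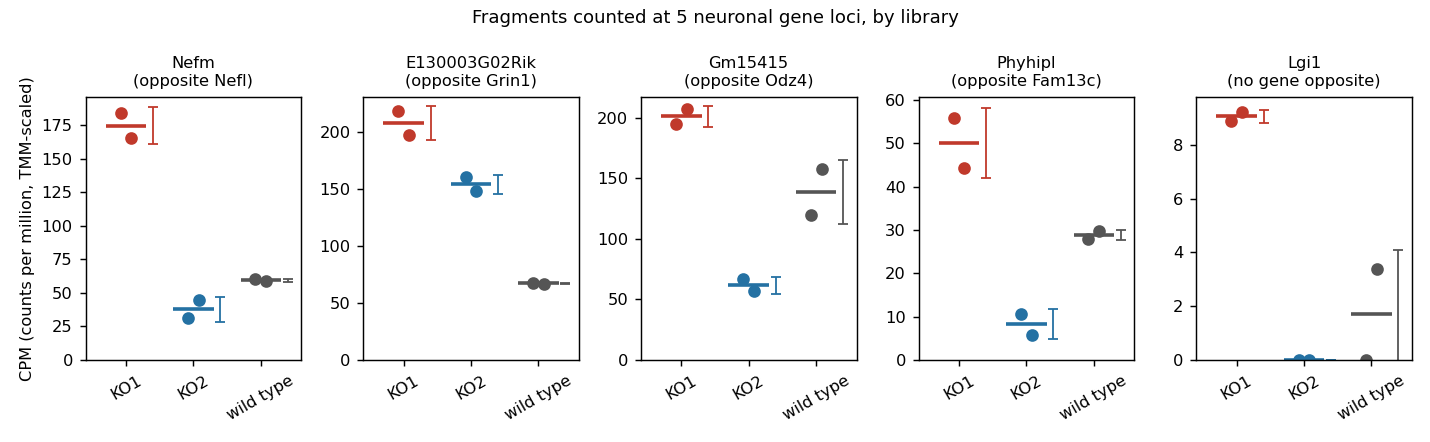
CPM (vertical axis, from 0, with a scale of its own in each panel) in each library (points) of KO1, KO2 and wild type at the counted gene of each locus, with the group mean (line) and SD (bar, n = 2, cut off at 0). Nefm, Gm15415 and Phyhipl are highest in KO1 and lowest in KO2, E130003G02Rik is higher in both lines than in wild type, and Lgi1 is near 9 CPM in KO1 and at 0 in KO2.

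Of the 6 members that passed the filter, 3 (Nefm, Gm15415 and Phyhipl) had both KO1 libraries above and both KO2 libraries below both wild type libraries. The same was true of 251 of 5034 tested genes (4.99%), and the reverse pattern held for 291 (5.78%). Because the members were picked on these counts, nothing is read from their share. KO1 lay above wild type without overlap at 24.7% of tested genes, KO2 below wild type at 26.0% and KO1 above KO2 at 29.8%. With edgeR (quasi-likelihood test, Benjamini-Hochberg), 16 genes (0.318%) were called both higher in KO1 and lower in KO2.

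**Figure D3:**
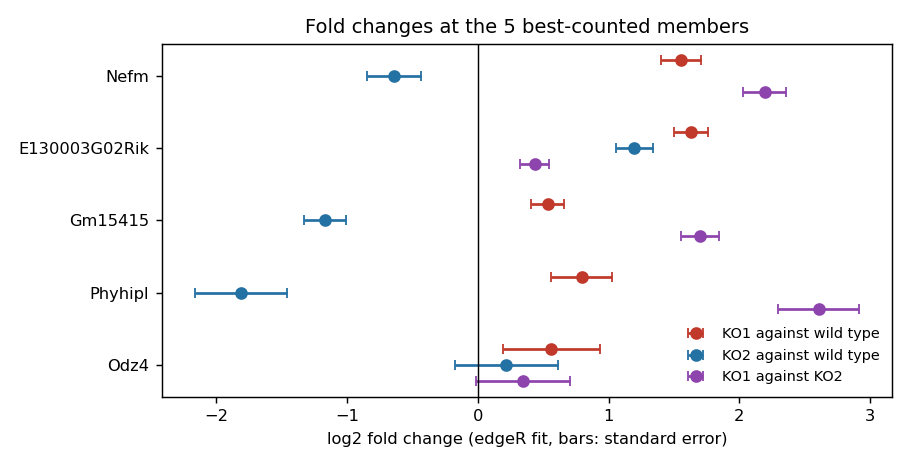
Log2 fold change (horizontal axis) with its standard error (bars) for KO1 against wild type (red), KO2 against wild type (blue) and KO1 against KO2 (purple) at the 5 members with the most counts. E130003G02Rik lies right of 0 in both lines, at 1.63 and 1.20, while Nefm, Gm15415 and Phyhipl lie right of 0 in KO1 and left of 0 in KO2.

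Over the 6 libraries, log2 CPM of Gm15415 and Phyhipl had a Pearson r of 0.977, Nefm and Gm15415 0.864, and Nefm and Phyhipl 0.842. E130003G02Rik stood apart, at 0.458 with Nefm, 0.0605 with Gm15415 and 0.0593 with Phyhipl. These values rest on 3 groups of 2 libraries that share line and depth, so they describe the order of the groups. Other genes had close profiles too: of 5028 other tested genes, 59 had an r above 0.95 with Nefm, 25 with E130003G02Rik, 73 with Gm15415 and 55 with Phyhipl.

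The genes most like each member had smaller gaps between groups. Heatr7b1 (opposite Hjurp) followed Nefm with an r of 0.999 and a log2 difference of 0.63 between KO1 and KO2, and BC065397 (opposite Morf4l2) and Gm17371 (opposite the tropomyosin gene Tpm4) followed it with 0.993 and 0.991. Tmbim1 (0.998), Gm11149 (opposite the neural adhesion gene Ncam1, 0.993) and Clmn (0.990, at 4 to 12 counts per library) were most like Gm15415. Tspan31, opposite the cell cycle kinase gene Cdk4, was most like Phyhipl (0.997), ahead of Adat1 (0.982) and Matk (0.981). The transcription factor gene Atf4 (0.992), Gm13778 (0.989) and the helicase gene Rtel1 (0.987) were most like E130003G02Rik. They held few counts per library: 6 to 11 at Atf4, 3 to 11 at Gm13778 and 12 to 22 at Rtel1. The minimum mean of 30 counts was set for the members only, and counting error weighs on r at such counts.

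The nearest counted genes around the loci mostly did not pass the test. C230038L03Rik, opposite Nars2 and 0.543 kb beyond Gm15415, had 25 and 19 counts in KO1, 20 and 27 in KO2, and 24 and 26 in wild type, and all groups overlapped. Ssna1 and Man1b1, at 18.7 and 13.2 kb from the Grin1 locus, were not called in any contrast. Gm9877, opposite Slc16a9 and 152 kb from Fam13c, stood at 0.90 ± 0.34 in KO1 against wild type (edgeR adjusted p 0.0949, Benjamini-Hochberg). Around Nefm, at over 1 Mb, 1700001G11Rik (opposite Trim35) fell in KO2 against wild type (-0.80 ± 0.20, edgeR adjusted p 0.00741), and so did Gm16867 (opposite Entpd4, -0.38 ± 0.11, adjusted p 0.0213). Neither was called in KO1. Between KO1 and KO2, 1700001G11Rik was higher in KO1 (0.64 ± 0.20, edgeR adjusted p 0.0219), the direction of Nefm, and Gm16867 was not called (0.29 ± 0.11, adjusted p 0.0562). The other neighbours, Gm9934, Bcr, Cpeb3 and Gm16765, were not called in any contrast. On chromosomes 2, 7, 10, 14 and 19, which hold the loci, the median over tested genes lay within -0.0937 and 0.1000 of the median of all tested genes in every contrast (log2 scale).

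Promoter sequence was looked up for 7 of the genes (Nefm, Nefl, Grin1, Odz4 as Tenm4, Fam13c, Phyhipl and Lgi1), and 5 had an entry in the RefSeq table of GRCm38.p6, which gives 250 bases before to 50 after a gene's start. Windows are shown at annotated starts of the genes whose RNA the counts are read as, and of Lgi1. Capitals mark matches on either strand to any of 5 motifs. The GC box was searched as GGGCGG. The right part of an RE1 element was searched as GGACAG and its left part as TTCAGCACC. The TATA box was searched as TATAAA, and the cyclic AMP response element (CRE) as TGACGTCA.
Grin1, GRCm38.p6 chr2:25319138-25319437, minus strand: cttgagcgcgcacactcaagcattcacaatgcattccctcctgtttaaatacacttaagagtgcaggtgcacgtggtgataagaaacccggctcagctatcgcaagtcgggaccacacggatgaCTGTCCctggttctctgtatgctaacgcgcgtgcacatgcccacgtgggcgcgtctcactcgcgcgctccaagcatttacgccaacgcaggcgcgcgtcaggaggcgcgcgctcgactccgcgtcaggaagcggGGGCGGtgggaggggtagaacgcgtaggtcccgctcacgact
Tenm4, GRCm38.p6 chr7:96170994-96171293, plus strand: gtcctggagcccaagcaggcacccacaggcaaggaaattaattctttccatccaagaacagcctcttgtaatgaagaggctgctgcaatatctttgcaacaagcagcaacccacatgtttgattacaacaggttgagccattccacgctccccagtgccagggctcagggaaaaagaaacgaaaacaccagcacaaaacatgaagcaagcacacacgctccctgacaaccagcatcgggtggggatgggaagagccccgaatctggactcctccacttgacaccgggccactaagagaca
Fam13c, GRCm38.p6 chr10:70440418-70440717, plus strand: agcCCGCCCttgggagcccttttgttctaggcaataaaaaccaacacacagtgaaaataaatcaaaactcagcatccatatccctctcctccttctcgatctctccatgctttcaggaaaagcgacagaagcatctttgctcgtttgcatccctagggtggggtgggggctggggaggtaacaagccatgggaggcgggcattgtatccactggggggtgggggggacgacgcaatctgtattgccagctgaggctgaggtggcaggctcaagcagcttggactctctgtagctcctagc
Lgi1, GRCm38.p6 chr19:38264437-38264736, plus strand: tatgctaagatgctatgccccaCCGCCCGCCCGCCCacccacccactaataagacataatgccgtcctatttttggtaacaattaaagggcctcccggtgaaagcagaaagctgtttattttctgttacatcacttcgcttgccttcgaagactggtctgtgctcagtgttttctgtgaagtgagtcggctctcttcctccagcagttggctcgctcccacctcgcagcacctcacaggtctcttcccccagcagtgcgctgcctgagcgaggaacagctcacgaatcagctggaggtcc
The Grin1 window holds 1 GC box and 1 match to the RE1 right part, with 33 CpG dinucleotides against a median of 7 over 32851 windows. The Tenm4 window holds none of these letters, the Fam13c window holds 1 GC box, and the Lgi1 window holds 3 GC boxes that overlap each other. The GC box was found in 35.7% of all windows, the RE1 right part in 22.2%, the TATA box in 13.6%, the CRE in 1.79% and the RE1 left part in 0.371%. The other Tenm4 window held no match, and the other Fam13c window held 1 GC box. Of the Phyhipl windows, the first held 6 GC boxes and 1 RE1 right part and the second 1 TATA box. These matches describe letters only.

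Other genes of neurons were read from 11 lists of 152 genes, with the members left out. By their own symbol 29 were tested, and 12 counted genes lay opposite a listed gene. Under the reading used here, only counts at these 12 are taken as RNA of a listed gene. Calls are given first for all 41, then for each kind. In the lines together against wild type, 3 of these 41 were called with edgeR (quasi-likelihood test, Benjamini-Hochberg), all lower. Of all tested genes 6.62% were called there, 2.72% higher and 3.89% lower. In KO1, 2 of 41 were called, both lower, against 9.79% of all tested genes (3.46% higher and 6.34% lower). In KO2, 7 of 41 were called, 1 higher and 6 lower, against 8.98% (5.01% higher and 3.97% lower). Between KO1 and KO2, 7 of 41 were called, 5 higher in KO1 and 2 lower, against 19.3% (7.93% higher and 11.4% lower). The median log2 fold change of the 41 was -0.15 in the lines together, -0.03 in KO1, -0.19 in KO2 and 0.16 between KO1 and KO2. By own symbol, 1 of 29 was called in the lines together, 1 in KO1, 4 in KO2 and 3 between KO1 and KO2. By the gene opposite, 2 of 12 were called in the lines together, 1 in KO1, 3 in KO2 and 4 between KO1 and KO2.

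The teneurin list, which holds the partners of Odz4, had calls on both strands of 1 locus. Gm10644, opposite the latrophilin gene Lphn1, a teneurin receptor, had 1656 and 1623 counts in KO1, 1833 and 1893 in KO2, and 2072 and 2086 in wild type. It fell in the lines together (-0.29 ± 0.05, edgeR adjusted p 5.97e-05), in KO1 (-0.41 ± 0.05, adjusted p 1.89e-06) and in KO2 (-0.17 ± 0.05, adjusted p 0.0415). The KO2 call was lost in 10 of 12 alternatives, among them the leaving out of each of the 6 libraries. Lphn1, on the other strand, had 48 and 54 counts in KO1, 84 and 72 in KO2, and 40 and 47 in wild type, and rose in KO2 (0.83 ± 0.20, adjusted p 0.00695; 0.0964 by DESeq2) but was not called in KO1 (0.16 ± 0.22, adjusted p 0.732). The Lphn1 call in KO2 was also lost without KO2 replicate 1 or wild type replicate 1. Under the reading used here, the Gm10644 count is Lphn1 RNA and the Lphn1 count is RNA of the other strand.

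Among genes of the synaptic vesicle, Syn3, a synapsin gene whose exons lie opposite the metalloproteinase inhibitor gene Timp3, had 16 and 19 counts in KO1, 9 and 15 in KO2, and 75 and 97 in wild type. It fell in both lines (KO1 -2.35 ± 0.25, edgeR adjusted p 5.12e-08, and KO2 -2.84 ± 0.27, adjusted p 5.34e-09) and was called in all 12 alternatives. Under the reading used here this count is Timp3 RNA, so it does not bear on synapsin. Rab3a, a GTPase gene of synaptic vesicles, was higher in KO1 than in KO2 (0.68 ± 0.24, edgeR adjusted p 0.0482), a call lost in 10 of 12 alternatives, among them the leaving out of each of the 6 libraries.

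Among postsynaptic genes, Nrxn2 (opposite Slc22a12), a neurexin gene, had 11 and 11 counts in KO1, 3 and 5 in KO2, and 12 and 15 in wild type and fell in KO2 (-1.73 ± 0.54, edgeR adjusted p 0.0386). That call was lost in 6 of the 10 alternatives that gave it a value, among them the leaving out of any library other than KO1 replicate 1. Under the reading used here this count is Slc22a12 RNA, so it does not bear on the neurexin. Gm14964, opposite Nrxn2 and read as its RNA, was not called in KO2 (-0.28 ± 0.20, edgeR adjusted p 0.443). Gm15609, opposite the scaffold gene Shank3, had 15 and 21 counts in KO1, 4 and 6 in KO2, and 16 and 9 in wild type, and was higher in KO1 than in KO2 (1.77 ± 0.49, adjusted p 0.0103), a call lost without KO1 replicate 2 or KO2 replicate 1.

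Of the genes for neuronal cytoskeleton and differentiation, Gm11149, opposite Ncam1, shared the group order of Nefm, Gm15415 and Phyhipl. It had 187 and 180 counts in KO1, 95 and 101 in KO2, and 138 and 151 in wild type. It fell in KO2 (-0.57 ± 0.14, edgeR adjusted p 0.00695; 0.101 by DESeq2), was not called in KO1 (0.28 ± 0.12, adjusted p 0.171), and was higher in KO1 than in KO2 (0.85 ± 0.13, adjusted p 1.80e-05; 7.04e-04 by DESeq2). The KO2 call was also lost without KO2 replicate 2 or wild type replicate 2. Gm17370, opposite the neuronal splicing factor gene Nova2, had 285 and 322 counts in KO1, 218 and 205 in KO2, and 317 and 296 in wild type. It fell in KO2 (-0.54 ± 0.11, edgeR adjusted p 0.00103), and its fall in the lines together (-0.31 ± 0.09, adjusted p 0.0317) was lost by DESeq2 (adjusted p 0.275) and without KO1 replicate 1, KO2 replicate 2 or wild type replicate 1.

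Of the REST complex, Kdm1a, the demethylase gene, had 34 and 53 counts in KO1, 16 and 25 in KO2, and 43 and 48 in wild type, with no annotated exon opposite. It fell in KO2 (-1.16 ± 0.29, edgeR adjusted p 0.00784) and was lower there than in KO1 (KO1 minus KO2 1.03 ± 0.29, adjusted p 0.0114). Both calls were lost by DESeq2 (adjusted p 0.0958 and 0.0887) and without KO2 replicate 1, and the difference between the lines also without KO1 replicate 2. No other tested gene of this list was called in any contrast. Rest itself stood at -0.06 ± 0.24 in KO2 (edgeR adjusted p 0.918).

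In the remaining 6 lists nothing was called in any contrast. Among intermediate filament genes, Ina stood at -0.46 ± 0.20 in the lines together and Nt5c2, opposite Ina, at 0.19 ± 0.23. Of glutamate receptor genes, Grin3b, which also encodes an NMDA receptor subunit and lies opposite ORF61, stood at -0.05 ± 0.13. ORF61, whose count is read as Grin3b RNA, stood at 0.66 ± 0.56 in the lines together and 1.09 ± 0.60 in KO2. It had 12 and 4 counts in KO1, 23 and 5 in KO2, and 5 and 8 in wild type. Of the KO2 libraries, only replicate 1 stood above wild type. Grin2d stood at -0.26 ± 0.36 in the lines together. The LGI1 receptor genes Adam22 and Adam23 stood at 0.04 ± 0.46 and -0.23 ± 0.36. Pkd2l2, opposite Fam13b, stood at -0.0016 ± 0.08, the calcium channel gene Cacna1a at 0.15 ± 0.18, Gm16183 opposite it at 0.06 ± 0.13, and Pax6, opposite Elp4, at 0.08 ± 0.10.

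**Figure D4:**
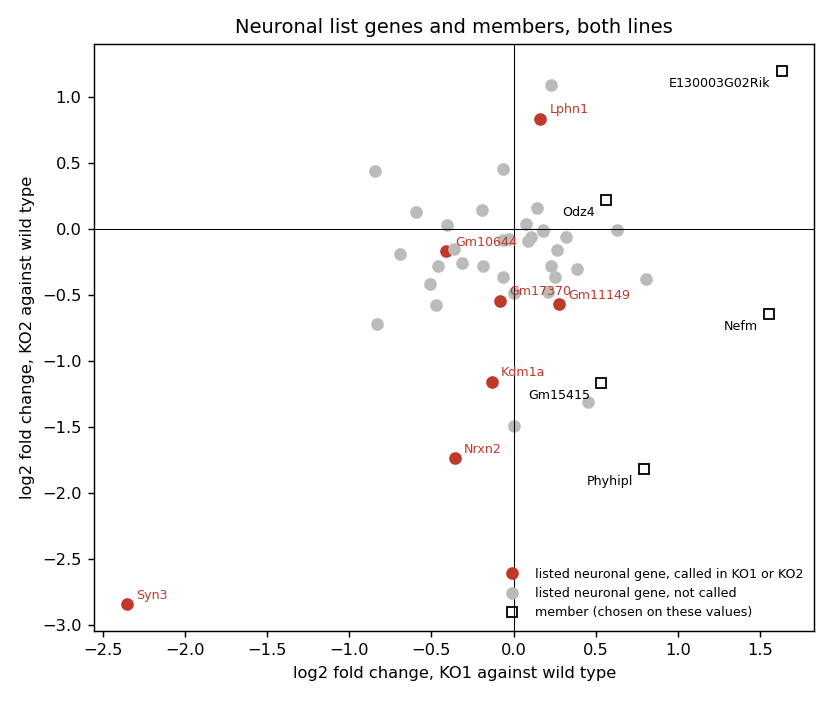
Log2 fold change in KO1 against wild type (horizontal axis) and in KO2 against wild type (vertical axis) for 41 counted genes of the neuronal lists (circles, red where called in either line) and for 5 members (squares, chosen on these values). Most listed genes lie near 0 in both lines, Syn3 lies far down on both axes, and Nefm, Gm15415 and Phyhipl lie in the lower right.

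Markers of other cells gave these values beside the members. The summed CPM of 7 neural progenitor markers, by their own symbol, was 179 to 183 in KO1, 149 to 167 in KO2 and 157 to 164 in wild type, nearly all at Pax6, which lies opposite Elp4. Of these markers 6 had a count, and Fabp7 was at 0. Of 10 glial markers 8 had a count, with Olig2 and Aqp4 at 0, and their sum was 88.9 to 114 in KO1, 91.8 to 108 in KO2 and 129 to 152 in wild type, mostly at Mog. Of 8 fibroblast markers 4 had a count, with Col3a1, Postn, Col1a2 and Thy1 at 0, and their sum was 27.5 to 39.4 in KO1, 28.0 to 29.4 in KO2 and 23.8 to 26.2 in wild type. These sums are by the markers' own symbols. At counted genes opposite a marker, the fibroblast sum was 1202 to 1284 CPM in KO1, 1172 to 1211 in KO2 and 1239 to 1272 in wild type, mostly at Apol7d, opposite Fn1. Within it, Gm17329, opposite Col1a1, held 4 and 3 counts in KO1, 4 and 1 in KO2, and 78 and 94 in wild type. The glial sum, all at Gm15756 opposite Aldh1l1, was 43.6 to 46.9 CPM in KO1, 66.0 to 68.6 in KO2 and 49.0 to 49.3 in wild type. The neural progenitor sum was 0 to 4.85 CPM in KO1, 4.95 to 6.24 in KO2 and 0 to 0.875 in wild type. The part of other cell types in the members' counts was not tested. In bulk RNA, more cells of a type and more RNA per cell cannot be told apart.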

How the data were processed

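Gene expression was measured by RNA sequencing. Each library has its own deposited table of raw, unnormalized counts by gene. These were made by the authors with featureCounts 2.0.1 (paired fragments, exons, strand setting 1, GENCODE mouse version 1 genes in mm9), per the file headers. The submitters' processing notes name Trim Galore 0.6.4 and STAR 2.5.4b. No label says if the kit keeps strand.

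Counts were analysed with edgeR 4.0.16 in R 4.3.3 (filterByExpr with groups, minimum count 10, TMM scaling, robust quasi-likelihood fit of 3 group means with 3 residual degrees of freedom, common biological coefficient of variation 4.46%). A gene was called at a Benjamini-Hochberg adjusted p under 0.05 over 5034 genes. As the gene opposite, the one sharing most exonic bases (50 or more) from the other strand was taken. Ratios of small summed counts carry exact 95% intervals for counting error only. The steps were tested on simulated counts with the same change planted in both lines, and only for the lines together against wild type. Changes in a single line or in opposite directions were not simulated, so the other contrasts were not checked in this way.

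The members and the gene lists were chosen with earlier results of these data known. Named genes were the members and the 3 genes most like each member with a mean of at least 30 counts. The nearest gene with a mean of at least 10 counts on each side was named as well. From each list, up to 4 called genes or the 2 highest were named, with Rest and Gm14964 beside them. Alternatives were DESeq2 1.42.0 (test and size factors), no filter, a minimum count of 20, leaving out AY036118, a replicate block, leaving out each library, and overlaps of at least 1 or 200 bases. Chromatin libraries were not analysed here.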

Additional observations from a re-analysis of the deposited data

Results flagged for a closer look

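In 3 members every KO1 library stood above and every KO2 library below wild type. The same held for 4.99% of tested genes, and the reverse for 5.78%. The KO1 minus KO2 log2 difference was 2.20 for Nefm, 1.70 for Gm15415 and 2.61 for Phyhipl. These differences were not tested, since the members were chosen on these counts.

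In 7 of 41 counted genes of the neuronal lists (17.1%), the 2 lines differed by edgeR's quasi-likelihood test of KO1 against KO2 (Benjamini-Hochberg). Of all tested genes 19.3% were called there. By own symbol 3 of 29 (10.3%) were called, and by the gene opposite 4 of 12 (33.3%). Only these 12 are read as RNA of a listed gene. The sets are small and no set test was run, so nothing is read from the shares. KO1 was higher than KO2 at Gm15609 (opposite Shank3) by 1.77 (adjusted p 0.0103), at Kdm1a by 1.03 (adjusted p 0.0114) and at Gm11149 (opposite Ncam1) by 0.85 (adjusted p 1.80e-05). It was also higher at Rab3a by 0.68 (adjusted p 0.0482) and at Gm17370 (opposite Nova2) by 0.46 (adjusted p 0.00266). The difference was -0.67 at Lphn1 (adjusted p 0.0146) and -0.24 at Gm10644 (opposite Lphn1, adjusted p 0.00129). Of these differences, those at Gm11149 and Gm10644 were called in all 12 alternatives, that at Gm17370 in all except 2 (without KO1 replicate 2 and without KO2 replicate 2). Lphn1 and Kdm1a lost the call in 3 alternatives each and Rab3a in 10, DESeq2 among them for each. Lphn1 lost it without KO1 replicate 1 or KO2 replicate 1, and Kdm1a without KO1 replicate 2 or KO2 replicate 1. Gm15609 lost it in 2 of 10, without KO1 replicate 2 or KO2 replicate 1, and DESeq2 gave it no adjusted p.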

How the results depend on the processing

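Alternatives were compared for Nefm, E130003G02Rik, Gm15415, Phyhipl and Odz4. Lgi1, at 0 counts in both KO2 libraries, was left out. Of 240 log2 fold changes of these members under alternatives, 220 moved by at most 1 standard error of the fit and 20 further, all 20 on leaving out a library. The sign changed in 2, both at Odz4 without wild type replicate 1. Odz4 in the lines together was -0.12 without wild type replicate 1 and 1.23 without replicate 2, and in KO2 it was -0.28 and 1.06. Nefm in KO2 ranged from -0.92 to -0.40, Phyhipl in KO2 from -2.28 to -1.41 and Gm15415 in KO1 from 0.35 to 0.75, none of these changing sign.

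DESeq2 called 115 genes in the lines together (edgeR 333), 207 in KO1 (493), 170 in KO2 (452) and 417 between KO1 and KO2 (971). Leaving out a library gave 213 to 362 in the lines together (213 and 218 without wild type replicate 1 and 2), 280 to 591 in KO1 (280 and 303 without KO1 replicate 1 and 2), 328 to 435 in KO2 and 561 to 1065 between the lines (561 and 643 without KO1 replicate 1 and 2).

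Of listed genes, by DESeq2 1 was called by the gene opposite in the lines together, 1 by own symbol in KO2 and 1 by the gene opposite in KO2. DESeq2 gave Nrxn2 no adjusted p in KO2. With no filter, 2 were called by own symbol in KO1. Leaving out a library gave 1 to 2 by own symbol and 1 to 2 by the gene opposite in the lines together, and 1 to 4 and 1 to 2 in KO2 (1 by own symbol without KO2 replicate 1, 2 without wild type replicate 1, and 1 opposite without wild type replicate 2). The causes were not tested.

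Same-numbered libraries showed no shared deviation over the tested genes (correlations -0.0356, 0.0109 and -0.00685). Counting error at this depth can hide one, so pairing by number is not excluded. With a replicate block, 321, 482, 416 and 935 genes were called in the lines together, KO1, KO2 and between the lines. At a median of 23 to 27 counts, low members limit what can be seen.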
